A study of Homo sapiens with 30 samples.

Results

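The proteasome is the protease that breaks down ubiquitin-tagged proteins, and its subunits are encoded by the PSMA, PSMB, PSMC and PSMD genes. RNA of these genes was followed in LNCaP, a human prostate cancer cell line that responds to androgen. Members were the rows whose symbol is PSMA, PSMB, PSMC or PSMD followed by a number, without the interferon-inducible forms PSMB8, PSMB9 and PSMB10. The rule gave 36 genes of 26443 with values. Of these, 34 passed the filter on low values (a value of 1 or more in 3 or more libraries of an experiment) in all 3 experiments.

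The data are 30 RNA sequencing libraries in 10 groups of 3. In the first experiment, cells were infected for 5 days with the pLKO control or with an shRNA against USP7 (shUSP7, labelled shUSP7-1), BUB3 (shBUB3) or FOXA1 (shFOXA1). In the siRNA experiment, cells were transfected for 4 days with a control siRNA (siCtrl) or an siRNA against EZH2 (siEZH2). In the pGIPZ experiment, cells were infected for 5 days with a control (pGIPZ), an shRNA against FOXA1 (shFoxA1), or that shRNA together with HA-tagged wild-type FOXA1 (shFoxA1 + WT) or the K295A form (shFoxA1 + K295A). The stated times leave out the third K295A library. USP7 removes ubiquitin from proteins, BUB3 acts in the spindle checkpoint, FOXA1 is a forkhead transcription factor that opens chromatin in luminal cells, and EZH2 is the histone methyltransferase of the polycomb repressive complex. No label says that libraries of a group came from separate cultures, and p-values here cover only the spread among libraries, which may be technical.

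The 20S core of the proteasome is a barrel of an outer alpha ring (PSMA) and an inner beta ring (PSMB) on each side. PSMB5, PSMB6 and PSMB7 carry the chymotrypsin-like, caspase-like and trypsin-like activities. The 19S regulator caps the barrel: its base holds the ATPases (PSMC) that unfold and thread the substrate and the scaffolds PSMD1 and PSMD2, PSMD4 is a ubiquitin receptor, and the lid holds PSMD14, which cuts ubiquitin off the substrate. PSMD5, PSMD9 and PSMD10 are numbered with the subunits but are chaperones of 19S assembly. When proteasome activity falls, the transcription factor NFE2L1 raises subunit genes through antioxidant response elements in their promoters.

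Promoter windows from RefSeq (GRCh38.p14; 250 bases before to 50 after the start) were found for 31 of the 36 members. PSMA7, PSMB1, PSMB6, PSMB7 and PSMD4 had no entry. The core of the antioxidant response element, TGACNNNGC on either strand, was found in 7 of the 31 (22.6%), against 13.6% of 27305 promoters of the same length. These matches are shown because NFE2L1 is known to act through such elements. Each is printed in the direction of the gene, with the match in capitals and positions counted from the first transcribed base as 0.
PSMD1 (chr2:231056617-231056916, + strand, from 39): gaggcgacTGACTGAGCag
PSMD3 (chr17:39980557-39980856, + strand, from -37): ccctttgtTGACTCGGCcatcggcc
PSMD3 (the same window, reverse match from 33): ttgcagctGCTCCGTCAtcgtgcgg
PSMD5 (chr9:120842873-120843172, - strand, from -134): gctacagtTGACACGGCcctaacgg
PSMD9 (chr12:121888540-121888839, + strand, from -102): gcttccggTGACCCAGCtccgccct
PSMD9 (the same window, reverse match from -149): ctactcctGCCGGGTCAccacaggc
PSMD12 (chr17:67366528-67366827, - strand, from -165): acaaaaccTGACGCTGCaggctgga
PSMB3 (chr17:38752491-38752790, + strand, from -104): ctccgtttTGACTTTGCaaccaaac
PSMC4 (chr19:39970915-39971214, + strand, reverse match from 27): agaggccgGCTTGGTCActatggag

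PSMB3 was the single 20S gene among the 7, and the others belong to the 19S particle or its chaperones. The forkhead core TGTTTAC, the kind of word that FOXA1 binds, was found on either strand in 2 member promoters (6.45%, against 3.41% of all promoters). It is shown because FOXA1 was knocked down, and the reverse match reads GTAAACA.
PSMB2 (chr1:35641477-35641776, - strand, from -187): cttagtgtGTAAACAgagaaact
PSMD5 (the window given above, from -224): cctacgcgGTAAACAcgtaagcc

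The CCAAT box, CCAAT on either strand, was found in 16 of 31 member promoters (51.6%, against 35.7% of all). A palindromic motif of NRF1, which is a different gene from NFE2L1, was found in 6 (19.4%, against 8.78%). It reads GCGC, given again after a gap of 2 bases. No match of one motif overlapped a match of another in a member promoter. The median GC content was 60.7% over the members' promoters and 58.3% over all. A match describes letters only.

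Values of 1 gene are given as FPKM in the pLKO and siRNA experiments and as RPKM in the pGIPZ experiment. Both scale reads by gene length and library total, and each experiment was fitted and compared on its own. Depth relative to the first pLKO library ranged from 0.9 to 1.3 in the pLKO experiment and from 0.602 to 0.831 in the siRNA experiment. Relative to the first pGIPZ library it ranged from 0.847 to 1.3 in the pGIPZ experiment. Each library held 11262 to 12000 genes at or above 1. The third shBUB3 library stood apart: its FPKM values summed to 367614, against 235344 to 306578 in the other 11 libraries of that experiment. It was the highest of the 3 shBUB3 libraries for 32 of 34 members, by a median of 1.26 times the mean of the other two. Where leaving it out ended the call of a gene named in a comparison with pLKO, or moved its called value by over 1.5 times, the value without it is given. All 10 luminal prostate markers reached a value of 1 in a library, as did 1 of 3 basal, 2 of 5 stromal, 1 of 5 immune and 1 of 4 endothelial markers. Of the luminal markers, 6 of 10 were called lower in shUSP7, 8 in shBUB3, 5 in shFoxA1 and 7 with either re-expressed form, and 1, 2, 5, 3 and 2 were called higher. Their part in the results below was not tested. The summed immune list, 2.33 to 35.2 per library, was nearly all CD68, while PTPRC stayed at or near 0 in every group. Each targeted gene was lower in its knockdown: USP7 went from 28.2 ± 0.517 to 6.22 ± 0.143 FPKM, BUB3 from 36.3 ± 2.34 to 4.00 ± 0.629, and EZH2 from 12.6 ± 0.908 to 4.98 ± 0.128. FOXA1 went from 115.8 ± 0.191 to 58.96 ± 1.68 FPKM with shFOXA1, and from 131.5 ± 2.38 to 82.5 ± 1.87 RPKM with shFoxA1 (SD, n = 3 in each group). EZH2 was also lower in shUSP7 (6.28 ± 0.309), shBUB3 (4.55 ± 0.219) and shFOXA1 (5.87 ± 0.429) than in pLKO. In shFOXA1 all 4 targeted genes were called lower, BUB3 most (-1.17 on the log2 scale) and USP7 least (-0.35). Of the 4, 3 were called lower in shUSP7 and 3 in siEZH2 (2 after scaling by median ratios). In shBUB3 2 were called lower and 1 higher, and in shFoxA1 1 was called lower and 1 higher.

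In control LNCaP cells, subunit RNA was abundant but uneven. In the pLKO control the median member stood at 58.1 FPKM, against 8.14 over all genes at or above 1. PSMB4, a beta subunit without catalytic activity, was highest at 212.8 ± 2.03 FPKM, followed by the alpha subunit PSMA7 (179.2 ± 7.89), PSMB1 (129.6 ± 8.48) and PSMA4 (122.2 ± 4.68). The chaperones PSMD5 (5.72 ± 0.136) and PSMD9 (13.7 ± 0.648) were lowest of the tested members, and the highest stood 37.2 times above the lowest. Of 33 pairs of neighbours in this order, 19 overlapped in their libraries. The order was much the same in the siCtrl control (Spearman rho 0.959 over 34 genes, which share gene length and the counting method, so no p is given). PSMA8, the testis alpha subunit, and PSMB11, the thymus beta subunit, were the 2 members under the filter. PSMA8 was at 0 in all but 1 library, where it was 0.0258 FPKM, and PSMB11 did not exceed 0.121 in any library.

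PSMC1, an ATPase of the base, stood apart by its level, while rho was 0.962 over the 33 genes without it. It ranged from 22.3 to 46.8 FPKM over the 12 libraries of the pLKO experiment, from 0.855 to 1.66 FPKM over the 6 siRNA libraries, and from 1.38 to 2.20 RPKM over the 12 pGIPZ libraries. Its control mean was 20.2 times higher in pLKO than in siCtrl, although both stand in tables of the same unit. Only 9 of 5842 genes at or above 10 in either control were more than 10 times higher in pLKO, and 4 were more than 10 times lower. PSMC1 had 13 pseudogenes by name in GENCODE 29, of 30 over 11 members. Whether reads were shared with those copies was not tested, so its values are uncertain and hold within an experiment only. The library kit named in the labels does not mark strand, so reads of PSMA3, PSMD5 and PSMD6 cannot be separated from those of their antisense neighbours.

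**Figure D1:**
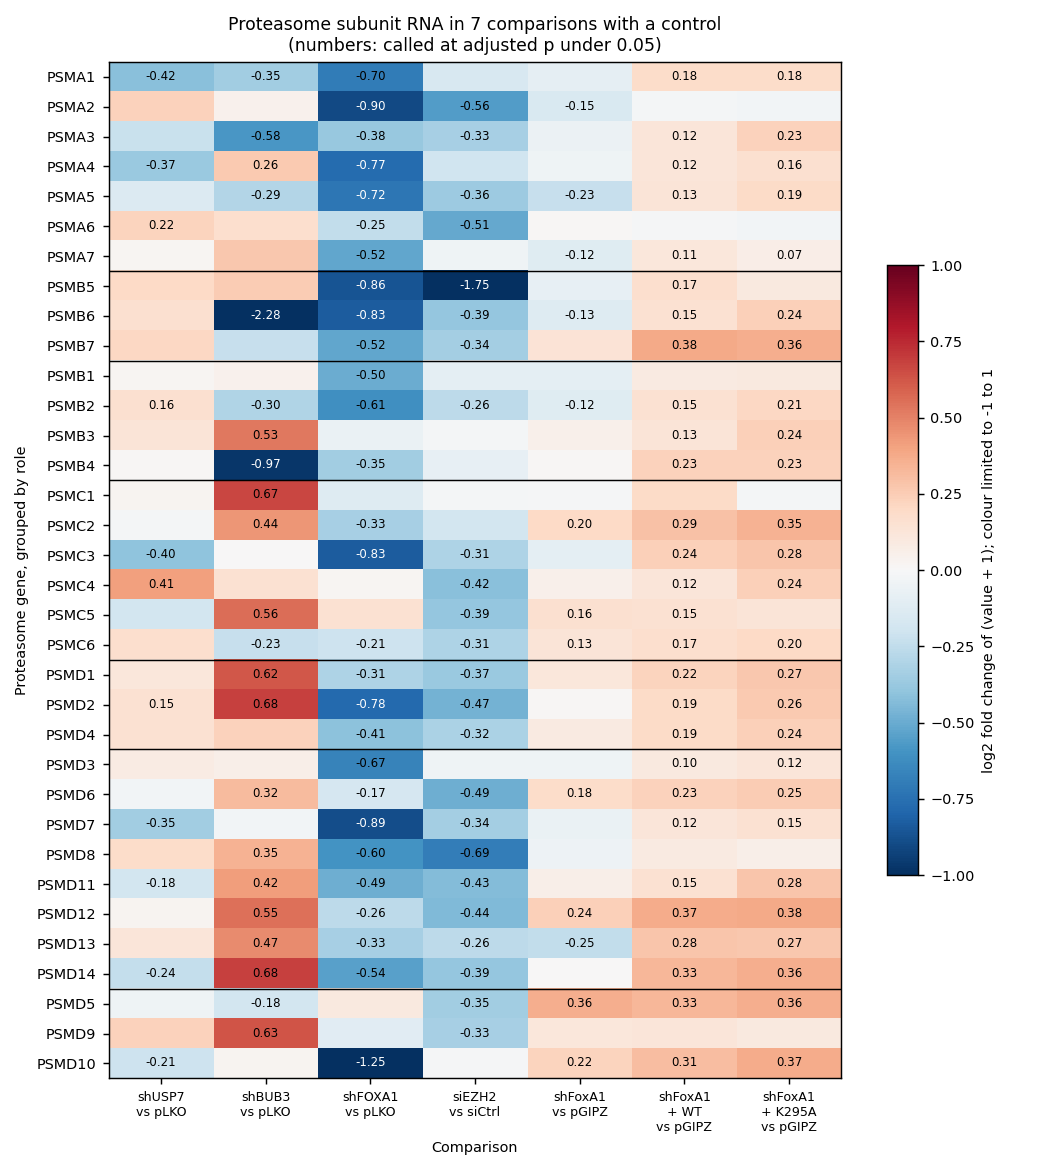
Log2 fold change of (value + 1) for the 34 tested members (rows, grouped by role) in the 7 comparisons with a control (columns). Colour is limited to -1 to 1, and a number is printed where the change was called at adjusted p under 0.05. PSMB6 in shBUB3 (-2.28), PSMB5 in siEZH2 (-1.75) and PSMD10 in shFOXA1 (-1.25) stand out from their columns.

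Below, a gene is called higher or lower at an adjusted p under 0.05 in limma (Benjamini-Hochberg over all genes tested in the comparison), levels are means ± SD (n = 3), and fold changes are differences of log2(value + 1) ± SE. With 3 libraries on each side the smallest p of an exact permutation test is 0.1, so single genes rest on the limma fit. In bulk RNA, fewer cells of a type and less RNA per cell cannot be told apart.

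USP7 knockdown moved some members in each direction by small amounts. Of 34 members, 4 were called higher and 7 lower, where 29.1% of all 12524 genes tested were called higher and 33% lower. The members' median difference was 0.03, against -0.02 over all genes, and no called member reached 1.5-fold, against 24.2% of all genes.

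PSMC4, a base ATPase, rose most. Its libraries read 44.8, 45.1 and 45.3 FPKM in pLKO and 58.7, 61.4 and 60.7 in shUSP7, a difference of 0.41 ± 0.068 (adjusted p = 0.00026). The alpha subunit PSMA6 rose by 0.22 ± 0.079 and the beta subunit PSMB2 by 0.16 ± 0.063. Every shUSP7 library lay above every pLKO library for these 3 genes.

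The alpha subunits PSMA1 and PSMA4 and the ATPase PSMC3 fell most. PSMA1 read 65.0, 64.8 and 60.8 FPKM in pLKO and 45.9, 47.7 and 48.1 in shUSP7, a difference of -0.42 ± 0.049 (adjusted p = 1.6e-05). PSMC3 went from 58.7 ± 0.122 to 44.3 ± 0.786 FPKM (-0.40 ± 0.11), and PSMA4 from 122.2 ± 4.68 to 93.96 ± 1.23 (-0.37 ± 0.092). The lid deubiquitinase PSMD14 fell from 32.3 ± 0.705 to 27.3 ± 1.74 FPKM (-0.24 ± 0.060, adjusted p = 0.0051). Its 3 knockdown libraries, at 25.7, 27.1 and 29.2, lay below the 3 controls, at 32.8, 32.7 and 31.5.

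The 3 catalytic subunits were not called, at 0.20 ± 0.11 for PSMB5, 0.16 ± 0.10 for PSMB6 and 0.21 ± 0.12 for PSMB7, although each shUSP7 library lay above each pLKO library. Without the third shBUB3 library in the shared fit, which takes its spread from all groups, 13 members were called higher and 10 lower, against 35.4% and 38.4% of 12473 genes. PSMB5 (adjusted p = 0.0036) and PSMB6 (adjusted p = 0.036) were then called higher in limma, and PSMB7 was not (adjusted p = 0.12). The fit of the 2 groups alone gave 14 higher and 10 lower.

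BUB3 knockdown split the particle: 19S genes were mostly higher, and 20S genes were mostly lower or not called. Of the 34 members, 14 were called higher and 8 lower, where 33.3% of all genes were called higher and 32% lower. The median difference was 0.20, against 0.01 over all genes, and without the third shBUB3 library it was 0.06. Of 20 tested 19S genes and chaperones, 12 were called higher and 2 lower (median 0.38), and of 14 tested 20S genes 2 were called higher and 6 lower (median -0.10). Without the third shBUB3 library the counts were 12 and 3 for 19S (median 0.28) and 2 and 6 for 20S (median -0.19). The summed level of the 36 members was 2130 to 2780 FPKM in shBUB3 and 2110 to 2229 in pLKO. As a share of all FPKM it was lower in shBUB3, at 0.719% ± 0.0318 against 0.77% ± 0.00723.

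PSMB6, the caspase-like catalytic subunit, fell further than any other member in any comparison with a control. Its libraries read 76.1, 69.8 and 64.9 FPKM in pLKO and 12.3, 12.5 and 16.6 in shBUB3. The groups were far apart, at 70.3 ± 5.61 against 13.8 ± 2.45, a difference of -2.28 ± 0.10 (4.85-fold, adjusted p = 5.5e-09). Only 112 of the 12524 genes tested (0.894%) had a lower value, and without the third shBUB3 library the difference was -2.41.

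PSMB4, the most abundant member in the controls, also fell. It read 211.2, 215.1 and 212.2 FPKM in pLKO and 93.3, 94.98 and 143.8 in shBUB3, a difference of -0.97 ± 0.13 (adjusted p = 5.5e-05). The third library lay closer to the controls than the other two, but below all of them. The alpha subunit PSMA3 fell from 78.9 ± 2.60 to 53.1 ± 10.6 FPKM (-0.58 ± 0.11). PSMA1, PSMA5 and PSMB2 were the other 20S genes called lower, at -0.35, -0.29 and -0.30.

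The other catalytic subunits were not called. PSMB5 was at 69.7 ± 4.01 FPKM in pLKO and 84.3 ± 17.7 in shBUB3, where the third library read 104.7 and the others 74.6 and 73.5 (0.25 ± 0.11). PSMB7 was at 45.1 ± 1.09 and 38.4 ± 1.88 FPKM (-0.23 ± 0.12), with every shBUB3 library below every control. PSMB3, of the beta ring, rose by 0.53 ± 0.13, and by 0.33 ± 0.057 without the third shBUB3 library (100.9 FPKM, against 66.1 and 67.2 in the other two). PSMA4 rose by 0.26 ± 0.092, and by 0.13 ± 0.036 without that library, and scaling ended its call (0.20).

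PSMD14 rose most together with the scaffold PSMD2 and the ATPase PSMC1. PSMD14 read 32.8, 32.7 and 31.5 FPKM in pLKO and 50.4, 49.9 and 57.0 in shBUB3, a difference of 0.68 ± 0.060 (1.6-fold, adjusted p = 1.5e-06). PSMD2 read 82.9, 85.7 and 80.6 FPKM in pLKO and 129.5, 129.6 and 141.6 in shBUB3 (0.68 ± 0.054, adjusted p = 6.3e-07). PSMC1 rose by 0.67 ± 0.078, within the limit given for its level. Neither PSMD14 nor PSMD2 had overlapping groups, with the third shBUB3 library or without it.

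In the lid, 6 of 8 genes were called higher and 0 lower, and in the base scaffold and receptor list 2 of 3. The ATPases were mixed, with 3 of 6 higher and PSMC6 lower (-0.23 ± 0.086). Of the chaperones, PSMD9 rose by 0.63 ± 0.12. PSMD5 was called lower at -0.18 ± 0.071, a call that was lost without the third shBUB3 library (-0.11). The fit of the 2 groups alone ended the calls of PSMD5, PSMC6, PSMA4 and PSMA5. Of the 7 genes with an antioxidant response element core in the promoter, 4 were called higher and 1 lower (median 0.53). PSMD5 was the lower one, and 6 of the 7 are 19S genes or chaperones. The same 7 genes had 1 higher and 0 lower in shUSP7, 0 and 3 in shFOXA1, 0 and 5 in siEZH2, and 2 and 0 in shFoxA1. Of all genes, 33.3% were called higher and 32% lower in shBUB3, and 29.1% and 33% in shUSP7. The shares were 25.2% and 45.1% in shFOXA1, 20.3% and 43% in siEZH2, and 25% and 24.2% in shFoxA1. Whether genes with the motif differ from other genes was not tested.

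**Figure D2:**
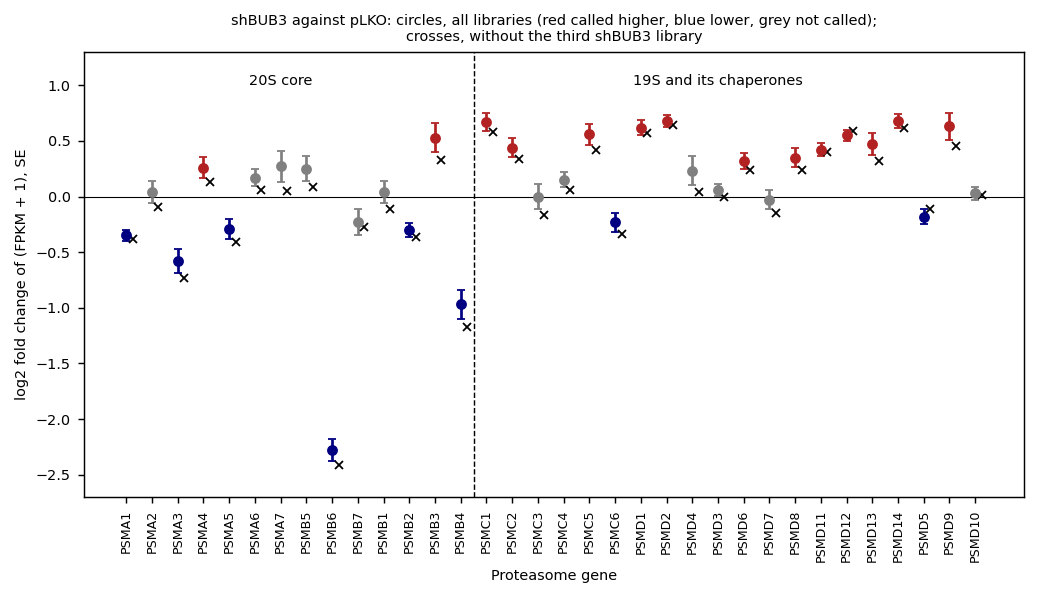
Log2 fold change of (FPKM + 1), shBUB3 against pLKO, for the 34 tested members. Circles with SE bars use all 3 libraries a group (red called higher, blue lower, grey not called), and crosses leave out the third shBUB3 library. 19S genes to the right of the dashed line lie mostly above 0, and PSMB6 (-2.28) and PSMB4 (-0.97) are the lowest of the 20S genes.

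FOXA1 knockdown in the pLKO experiment was followed by lower RNA of most subunits. Of 34 members, 28 were called lower and 0 higher, where 45.1% of all genes were called lower and 25.2% higher. 0 members had a higher value at an unadjusted p under 0.05 by limma, against 3279 of 12524 genes. The members' median was -0.49, against -0.15 over all genes. Scaling the libraries by median ratios shifted the all-gene median by 0.15. After scaling 18 members were called lower and 3 higher, with a median of -0.32. In that setting 8758 of 12569 genes were called, 49.2% of them higher.

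By particle, 13 of 14 20S genes and 15 of 20 19S genes were called lower, and after scaling 10 of 14 and 8 of 20. All 7 tested alpha subunits, all 3 catalytic beta subunits and all 8 lid genes were called lower in the values as deposited, and 5, 3 and 5 of them after scaling. The summed level of the 36 members was 1511 to 1571 FPKM in shFOXA1 and 2110 to 2229 in pLKO. As a share of all FPKM it was 0.643% ± 0.00115 against 0.77% ± 0.00723. Luminal prostate markers were also lower in this comparison (7 of 10 called lower and 2 higher, median -0.56).

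PSMD10, a 19S chaperone also known as gankyrin, fell most. Its libraries read 30.9, 32.8 and 29.6 FPKM in pLKO and 12.3, 12.9 and 12.2 in shFOXA1, a difference of -1.25 ± 0.057 (2.38-fold, adjusted p = 3.9e-09; -1.09 after scaling). The shBUB3 libraries (30.9 to 32.9) overlapped the controls, and the shUSP7 libraries (24.98 to 28.5) lay below them. The alpha subunit PSMA2 fell from 65.3 ± 3.39 to 34.5 ± 2.12 FPKM (-0.90 ± 0.096) and the lid subunit PSMD7, the partner of PSMD14, from 57.5 ± 1.62 to 30.5 ± 1.07 (-0.89 ± 0.086).

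Among the catalytic subunits, PSMB5 read 68.8, 74.1 and 66.3 FPKM in pLKO and 36.6, 38.5 and 38.5 in shFOXA1 (-0.86 ± 0.11, adjusted p = 3e-05; -0.69 after scaling). PSMB6 fell from 70.3 ± 5.61 to 39.2 ± 2.96 FPKM (-0.83 ± 0.10; -0.65 after scaling). PSMB7 fell by 0.52 ± 0.12 on the log2 scale (-0.35 after scaling), with the third library at 24.2 FPKM below the others at 35.2 and 35.5. All 3 stayed called lower after scaling, as did PSMD14 (-0.54 ± 0.060; -0.37 after scaling). PSMB3, PSMC1, PSMC4, PSMC5, PSMD5 and PSMD9 were the 6 not called, at -0.07, -0.13, 0.02, 0.15, 0.10 and -0.11. Of these, PSMC4, PSMC5 and PSMD5 were the 3 called higher after scaling.

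In EZH2 knockdown 1 catalytic subunit, PSMB5, stood far below its control. Most other members were slightly lower in the values as deposited. Of 34 members, 24 were called lower and 0 higher, where 43% of 11908 genes were called lower and 20.3% higher. 0 members had a higher value at an unadjusted p under 0.05 by limma, against 2619 of 11908 genes. The median was -0.34, against -0.16 over all genes. Scaling shifted the all-gene median by 0.18, after which 12 members were called lower and 2 higher (median -0.13). In that setting 7550 of 11925 genes were called, 51.2% of them higher.

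PSMB5, the chymotrypsin-like subunit and the main target of the drug bortezomib, read 88.4, 88.8 and 93.7 FPKM in siCtrl and 28.4, 22.8 and 27.3 in siEZH2. The groups lay far apart, with a difference of -1.75 ± 0.086 (3.37-fold, adjusted p = 1.6e-07; -1.55 after scaling). Only 104 genes (0.873%) had a lower value. The other catalytic subunits fell far less, PSMB6 from 96.3 ± 5.56 to 73.4 ± 1.33 FPKM (-0.39 ± 0.066) and PSMB7 from 57.9 ± 3.69 to 45.5 ± 1.90 (-0.34 ± 0.071). After scaling PSMB6 was still called lower (-0.18), and PSMB7 was not (-0.13).

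The lid subunit PSMD8 fell from 127.4 ± 4.91 to 78.4 ± 1.69 FPKM (-0.69 ± 0.062; -0.49 after scaling) and PSMA2 from 81.3 ± 3.40 to 54.7 ± 2.98 (-0.56 ± 0.069; -0.36 after scaling). PSMD14 fell from 42.0 ± 1.09 to 31.9 ± 2.12 FPKM (-0.39 ± 0.070; -0.19 after scaling). The 2 most abundant members were not called: PSMB4 was at 226.4 ± 10.8 and 213.7 ± 2.71 FPKM (-0.08 ± 0.063), and PSMA7 at 187.0 ± 11.4 and 182.3 ± 8.49 (-0.04 ± 0.070). The summed member level was 2368 ± 91.7 FPKM in siCtrl and 1911 ± 74.7 in siEZH2. As a share of all FPKM the groups overlapped, at 0.818 to 0.846% in siCtrl and 0.775 to 0.821% in siEZH2. The FPKM of all genes also summed to less in each siEZH2 library (235356 to 242449) than in each siCtrl library (278048 to 290339). All 10 luminal markers were called lower (median -1.48). The summed stromal markers went from 3.0 to 3.81 FPKM in siCtrl to 10.1 to 13.4 in siEZH2, mostly COL1A1 (3.26 ± 0.353 and 10.2 ± 1.89), and their part in the result was not tested.

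**Figure D3:**
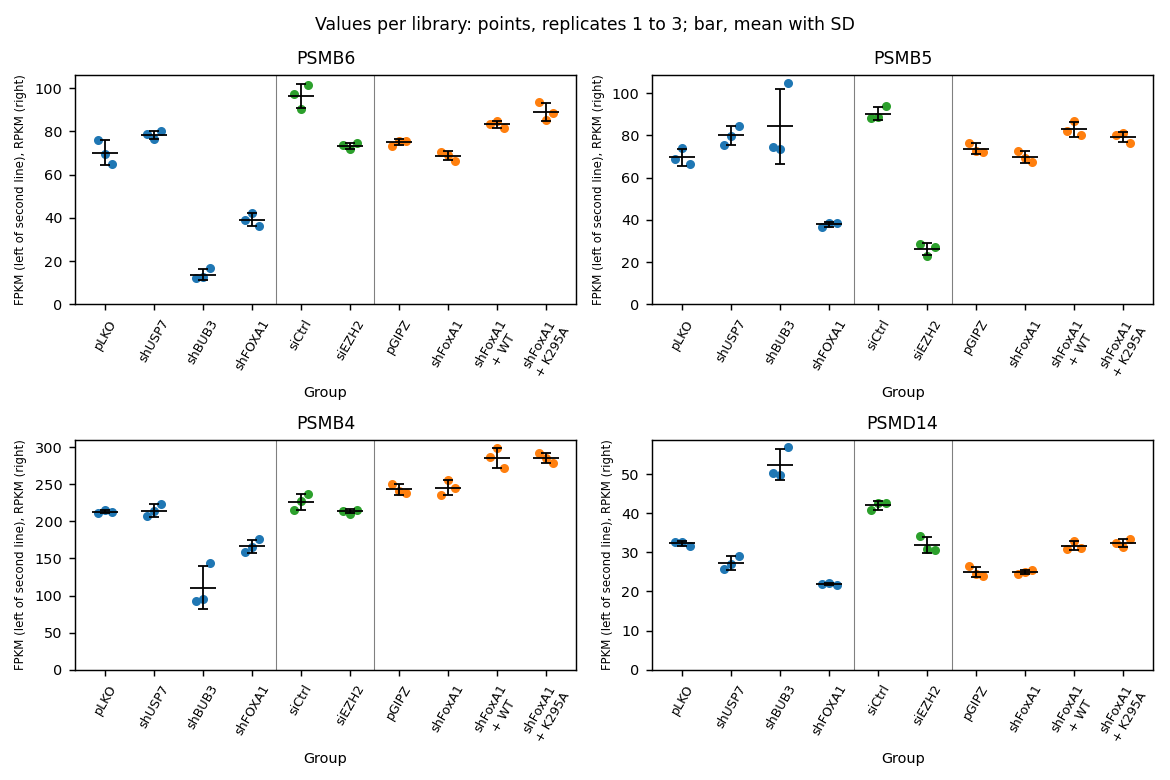
Value per library (points, replicates 1 to 3) with mean and SD (bars) for PSMB6, PSMB5, PSMB4 and PSMD14 in the 10 groups. Vertical lines separate the 3 experiments, with FPKM left of the second line and RPKM right of it. PSMB6 is lowest in shBUB3 (13.8 FPKM), PSMB5 in siEZH2 (26.2 FPKM), and PSMD14 is highest in shBUB3 (52.4 FPKM).

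**Figure D4:**
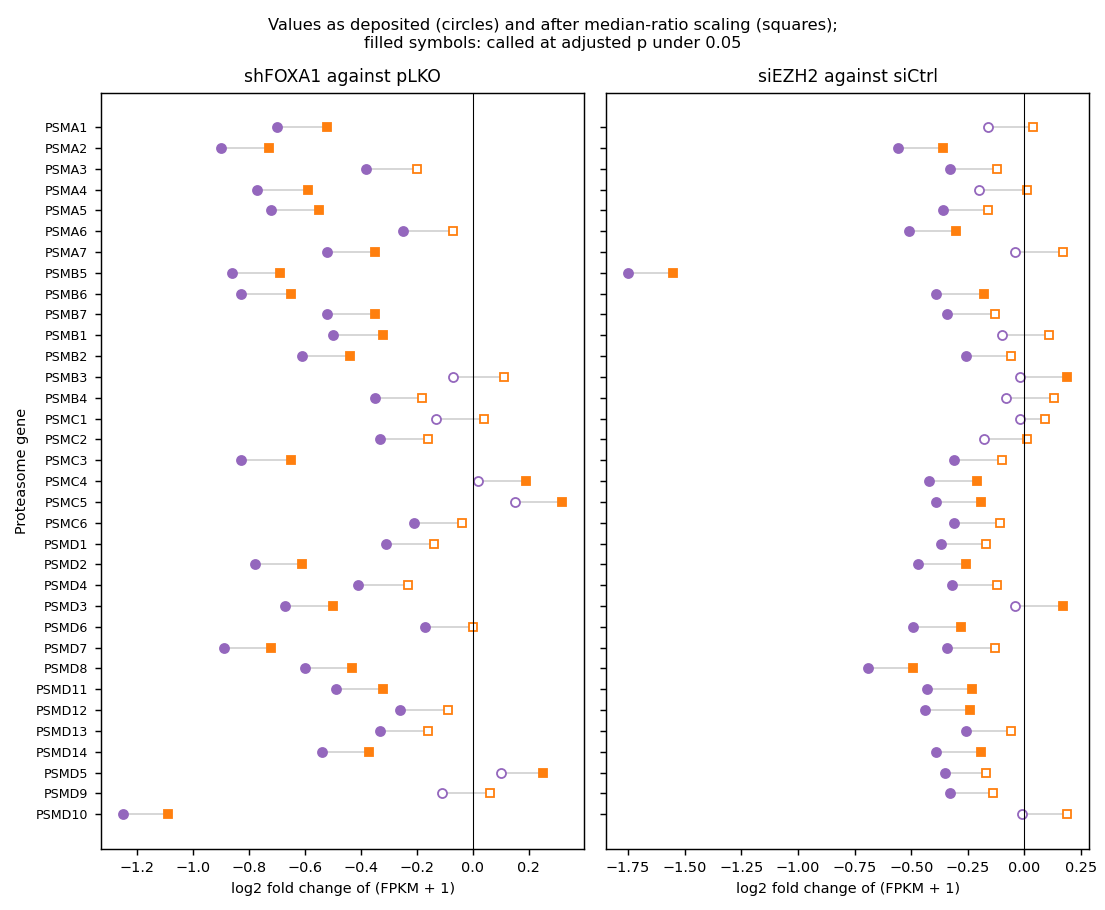
Log2 fold change of (FPKM + 1) for the 34 tested members in shFOXA1 (left) and siEZH2 (right), as deposited (circles) and after median-ratio scaling (squares), with filled symbols called at adjusted p under 0.05. Scaling moves each gene to the right, and 18 (left) and 12 (right) members stay called lower.

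The second FOXA1 knockdown, in the pGIPZ experiment, showed no general fall. Of 34 members, 7 were called higher and 6 lower, where 25% of 12563 genes were called higher and 24.2% lower. After scaling the split was 6 higher and 9 lower, where 6251 of 12575 genes were called, 49.1% of them higher. The median was 0.01 and the range -0.25 to 0.36, with no called member at 1.5-fold, against 8.66% of all genes. Of 14 20S genes 0 were called higher and 5 lower, and of 20 19S genes 7 were called higher and 1 lower.

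The chaperone PSMD5 rose most, from 3.14, 3.39 and 3.87 RPKM in pGIPZ to 4.75, 4.89 and 4.51 in shFoxA1 (0.36 ± 0.074, adjusted p = 0.0017). The lid subunit PSMD12 rose by 0.24 ± 0.047 and PSMD10 by 0.22 ± 0.060. The lid subunit PSMD13 fell most, from 62.1, 57.3 and 61.2 RPKM to 50.8, 50.1 and 50 (-0.25 ± 0.038, adjusted p = 0.00015), followed by PSMA5 (-0.23 ± 0.049) and PSMA2 (-0.15 ± 0.052). The groups of PSMA2 overlapped, whereas those of PSMD5 and PSMD13 did not. The call of PSMA2 was lost in the fit of the 2 groups alone (adjusted p = 0.06 in limma) and with the replicate block.

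Of the catalytic subunits, PSMB6 fell from 74.99 ± 1.38 to 68.7 ± 2.10 RPKM (-0.13 ± 0.036). PSMB5 (-0.08 ± 0.040), PSMB7 (0.14 ± 0.066) and PSMD14 (0.00 ± 0.042) were not called. CD68 went from 13.2 to 33.7 RPKM with this knockdown while PTPRC was at 0 in both groups, and the part of CD68 in these values was not tested.

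In the values as deposited, cells with re-expressed FOXA1 held slightly more RNA of most subunits than the pGIPZ control and the knockdown alone. With the wild-type form, 28 of 34 members were called higher and 0 lower against pGIPZ, against 33.7% and 11.8% of genes. With K295A the counts were 26 and 0, where 37.8% were called higher and 12.8% lower. In both comparisons 0 members had a lower value at an unadjusted p under 0.05 by limma. Of 12563 genes, 1764 were lower by that rule with the wild type and 1827 with K295A. Differences were small, with medians of 0.16 and 0.23 against 0.10 and 0.11 over all genes. Scaling moved the all-gene median by -0.09 and -0.11. Then 10 members were called higher and 1 lower with the wild type, and 15 higher and 2 lower with K295A. Of 12575 genes, 4741 were then called with the wild type (47.8% of them higher) and 5124 with K295A (48.4% higher).

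PSMB7 rose in both, from 38.4, 41.9 and 44.1 RPKM in pGIPZ to 51.98, 56.0 and 54.4 with the wild type (0.38 ± 0.066) and 53.7, 55.7 and 51.4 with K295A (0.36 ± 0.066). Neither group overlapped pGIPZ. PSMD12 rose by 0.37 ± 0.047 and 0.38 ± 0.047, and PSMD14 by 0.33 ± 0.042 and 0.36 ± 0.042. PSMD5 rose by 0.33 ± 0.074 and 0.36 ± 0.074, and PSMD10 by 0.31 ± 0.060 and 0.37 ± 0.060. Each of these rises stayed called after scaling, at 0.21 to 0.27.

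PSMB6 rose by 0.15 ± 0.036 with the wild type and 0.24 ± 0.036 with K295A, and after scaling it was called with K295A (0.12) and not with the wild type (0.04). PSMB5 rose with the wild type (0.17 ± 0.040; 0.06 and not called after scaling) and was not called with K295A (0.10 ± 0.040). The summed member level was 2087 ± 16.7 RPKM in pGIPZ, 2336 ± 20.4 with the wild type and 2364 ± 11.5 with K295A. As a share of all RPKM it was 0.738% ± 0.00346, 0.794% ± 0.0052 and 0.796% ± 0.00208, in the same order.

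Against the knockdown alone, 20 members were called higher and 0 lower with the wild type, against 36.6% and 18.9% of genes. With K295A, 25 were called higher and 0 lower, where 38.7% were called higher and 18.3% lower. In both comparisons 0 members had a lower value at an unadjusted p under 0.05 by limma. Of 12563 genes, 2586 were lower by that rule with the wild type and 2467 with K295A. After scaling the counts of called members were 11 higher and 1 lower, and 14 higher and 1 lower. Of 12575 genes, 6574 were then called with the wild type (48.9% of them higher) and 6615 with K295A (48.3% higher). Both comparisons share the shFoxA1 libraries with each other and with the comparison of shFoxA1 against pGIPZ. A gene that read low in those libraries is therefore favoured to rise here. Its fall and its rise are not independent results.

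PSMD13, the gene that fell most in the knockdown, rose most in both, from 50.8, 50.1 and 50 RPKM to 76.1, 73.6 and 69.8 with the wild type (0.53 ± 0.038) and 72.2, 71.3 and 74.8 with K295A (0.52 ± 0.038). PSMA5 rose by 0.36 ± 0.049 and 0.42 ± 0.049, and PSMC3 went from 58.9 ± 0.775 RPKM to 74.8 ± 0.403 and 76.9 ± 4.59. For PSMB6 the rises were 0.28 ± 0.036 and 0.37 ± 0.036, for PSMB5 0.25 ± 0.040 and 0.18 ± 0.040, for PSMB7 0.24 ± 0.066 and 0.22 ± 0.066, and for PSMD14 0.33 ± 0.042 and 0.36 ± 0.042. After scaling the calls of PSMB7 were lost in both (0.14 and 0.11) and that of PSMB5 with K295A (0.06). PSMD5 was not called in either (4.72 ± 0.191 RPKM in shFoxA1, 4.62 ± 0.364 with the wild type and 4.72 ± 0.360 with K295A).

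The K295A and wild-type groups were not told apart at any member. 0 members were called higher and 0 lower, where 0.0876% and 0.0955% of genes were called (0.183% in all). At an unadjusted p under 0.05 in limma, 6 members were higher with K295A and 0 lower. By the same rule 882 of 12563 genes were higher and 428 lower. Differences ranged from -0.20 for PSMC1 to 0.13 for PSMD11. The 95% intervals were -0.15 to 0.02 for PSMB5, 0.02 to 0.17 for PSMB6, -0.16 to 0.13 for PSMB7 and -0.06 to 0.12 for PSMD14.

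**Figure D5:**
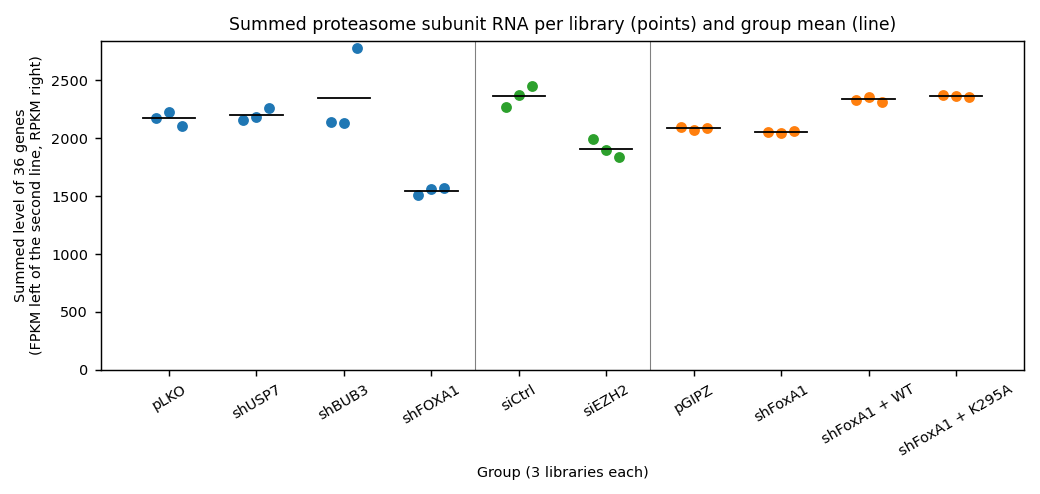
Summed level of the 36 members in each library (points) and its group mean (line), FPKM left of the second vertical line and RPKM right of it. The shFOXA1 libraries lie between 1511 and 1571, below every other library of their experiment, and the third shBUB3 library lies at 2780.

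The knockdowns of the pLKO experiment were also compared with each other. Against shUSP7, shBUB3 had 16 members called higher and 7 lower, against 36.2% and 29% of genes, with PSMB6 at -2.44 and PSMD14 at 0.91 as the extremes. shFOXA1 had 1 called higher and 28 lower than shUSP7 (28.1% and 42.9% of genes), with PSMC5 at 0.33 the highest and PSMA2 at -1.13 the lowest. Against shBUB3, shFOXA1 had 3 called higher and 28 lower (27.6% and 45.8% of genes), from PSMD2 at -1.46 to PSMB6 at 1.45.

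Over the 5 knockdowns against their controls, no member was called in 1 direction in all 5. PSMB6, PSMB2 and PSMA5 were called lower in 4, and PSMB2 was higher in the fifth. Of all genes, 24.2% (shFoxA1) to 45.1% (shFOXA1) were called lower in a single knockdown, and how many recurred in 4 was not counted. The pLKO knockdowns share their controls, and shFOXA1 and shFoxA1 target the same gene. The shFoxA1 call of PSMB2 was lost with the replicate block and in the fit of the 2 groups alone. In the latter fit the shBUB3 call of PSMA5 was lost too. After scaling PSMB6 and PSMA1 were lower in 4, and PSMB2 and PSMA5 in 3, both without the siEZH2 call. PSMB6 was lower in shBUB3, shFOXA1, siEZH2 and shFoxA1, at -2.28, -0.83, -0.39 and -0.13. PSMB3 and PSMC1 were not called lower in any.

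Genes around the proteasome were read from lists of related genes, in the values as deposited, with scaled counts where they differ by 2 or more. Of all genes tested, 33% were called lower in shUSP7, 32% in shBUB3, 45.1% in shFOXA1, 43% in siEZH2 and 24.2% in shFoxA1. The shares called higher were 29.1%, 33.3%, 25.2%, 20.3% and 25%, in the same order. These shares stand beside the counts of every list below. The assembly factors of the 20S core and 19S base (PSMG1 to PSMG4, POMP and PAAF1) had 4 of 6 called lower in shUSP7, 3 in shBUB3, 5 in shFOXA1, 5 in siEZH2 and 2 in shFoxA1, and 0, 1, 0, 0 and 1 called higher (3 lower and 1 higher in siEZH2 after scaling). PSMG2, which pairs with PSMG1 to build the alpha ring, fell from 26.8 to 11.9 FPKM in shUSP7 (-1.11 ± 0.063). In shFOXA1, PSMG1 fell by 1.24 ± 0.071 and PSMG3 by 1.25 ± 0.16 on the log2 scale. PAAF1, a chaperone of the base, fell by 1.15 ± 0.069 in shBUB3, and PSMG1 by 0.72 ± 0.095 in siEZH2. POMP, which helps to close the beta ring, rose in shBUB3 (0.53 ± 0.12; 0.34 without the third shBUB3 library) and shFoxA1 (0.48 ± 0.064).

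Of 7 subunits and partners with other names, the deubiquitinase UCHL5 was called lower in 4 knockdowns, at -1.03 in shUSP7, -1.16 in shBUB3, -1.25 in shFOXA1 and -0.82 in siEZH2. Its receptor ADRM1 was called higher in shUSP7, shBUB3, shFOXA1 and shFoxA1, at 0.38, 0.51 (0.33 without the third shBUB3 library), 0.40 and 0.21. UBE3C, a ubiquitin ligase bound to the proteasome, fell from 55.1 to 15.4 FPKM in siEZH2 (-1.78 ± 0.093). USP14, another deubiquitinase of the 19S particle, was higher with re-expressed FOXA1, at 21.3 RPKM in pGIPZ and 40.3 with the wild type (0.89 ± 0.043; 0.94 with K295A). The list had 4 higher and 2 lower in shUSP7, 3 and 2 in shBUB3, 1 and 5 in shFOXA1, 0 and 4 in siEZH2 (2 and 4 after scaling), and 4 and 0 in shFoxA1.

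The activators PSME3 and PSME4 and the inhibitor PSMF1 were all 3 called higher in shUSP7 (0.44, 0.58 and 0.32) and all 3 lower in shBUB3 (-0.19, -1.01 and -0.63; -0.12 for PSME3 without the third shBUB3 library) and siEZH2 (-0.93, -0.93 and -0.43). In shFOXA1 PSME3 and PSME4 were called lower, at -0.44 and -0.48. Of the immunoproteasome list, PSMB8 and PSMB9 stayed under 1 in every library. The PA28 activators PSME1 and PSME2 fell in shFoxA1, by 0.46 ± 0.041 and 0.56 ± 0.046 on the log2 scale. With re-expression they stayed below pGIPZ, at -0.44 and -0.50 with the wild type. In the other experiments PSME1 rose in shFOXA1 (0.40 ± 0.11), shBUB3 (0.37 ± 0.11; 0.23 without the third shBUB3 library) and siEZH2 (0.27 ± 0.069), where PSME2 also rose (0.23 ± 0.067). The list had 0 higher and 0 lower in shUSP7, 2 and 0 in shBUB3, 1 and 0 in shFOXA1, 2 and 1 in siEZH2, and 0 and 3 in shFoxA1, of 3 tested.

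In the list of the recovery response, NFE2L1 itself was at 52.4 ± 1.80 FPKM in pLKO. It was at 61.9 ± 2.22 in shUSP7 (0.23 ± 0.050) and 46.7 ± 2.06 in shBUB3 (-0.16 ± 0.050). In shFOXA1 it was at 55.5 ± 1.22 (0.08 ± 0.050, not called, but 0.25 and called higher after scaling). It was 65.0 ± 0.728 FPKM in siCtrl and 83.4 ± 4.41 in siEZH2 (0.35 ± 0.065). NFE2L3 rose from 4.47 to 9.02 FPKM and NFE2L2 fell from 17.7 to 9.12 FPKM in siEZH2. NFE2L3 fell in shFOXA1 (-0.86 ± 0.078) and shFoxA1 (-0.70 ± 0.076). The list had 1 higher and 1 lower in shUSP7 (3 and 1 without the third shBUB3 library), 1 and 3 in shBUB3, 0 and 3 in shFOXA1 (2 and 1 after scaling), 2 and 3 in siEZH2, and 4 and 1 in shFoxA1.

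Among ubiquitin genes and shuttles, which carry tagged proteins to the proteasome, the shuttles UBQLN2 (-1.81 ± 0.060) and UBQLN4 (-1.77 ± 0.057) fell in shBUB3, from 23.8 to 6.10 and from 23.03 to 6.04 FPKM. The ubiquitin genes RPS27A and UBB rose there, by 0.73 ± 0.14 and 0.65 ± 0.15. UBQLN4 also fell in shFOXA1 (-1.20 ± 0.057), as did RPS27A (-0.76 ± 0.14), while UBB rose (0.60 ± 0.15). UBQLN1 fell in siEZH2 (-0.63 ± 0.075), and UBQLN2 rose in shUSP7 (0.26 ± 0.060).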

How the data were processed

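RNA sequencing of 30 LNCaP libraries was used, 3 in each of 10 groups. Per the submitters' processing notes, STAR and the hg38 build were used. For the counting tool, its strand setting and the annotation, no name is given in the sources used here. The deposited tables hold FPKM (pLKO and siRNA experiments) and RPKM (pGIPZ experiment) per gene, made by the authors, so read depth is known only in relative terms, from the steps between low values.

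Values were taken as log2(value + 1). Genes at or above 1 in at least 3 libraries of an experiment were tested with limma 3.58.1 (trend; R 4.3.3), 1 fit per experiment, with Benjamini-Hochberg adjustment over all genes tested. The fit was tested on simulated data, with independent noise of the same spread in every group. The simulation held no outlying library and no shift in library totals, so it does not cover those features of the data. Tables were read with Python 3.11.15, pandas 2.3.3 and NumPy 2.4.6, and drawn with matplotlib 3.10.9. Groups came from the sample titles, and 13 comparisons were made. Named throughout were PSMB5, PSMB6, PSMB7, PSMD14, the up to 3 called members with the largest rise and fall in a comparison, and up to 2 called genes per list of related genes. Other genes named were chosen after their values were seen. Alternatives were a pseudocount of 0.1, no filter, median-ratio scaling, fits of 2 groups alone, a replicate block and leaving out each library. A fit without the third shBUB3 library for the other groups was added after seeing the data. Members and lists were chosen with earlier results of these data known. Some results on ubiquitin genes and shuttles are not reported here, and no count over that list is given.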

Additional observations from a re-analysis of the deposited data

Results flagged for a closer look

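Both FOXA1 knockdowns were read against their own control, and 5 members were called in opposite directions in the pLKO and pGIPZ experiments. Of 34 members, 28 were called lower with shFOXA1 and 7 higher with shFoxA1, so some opposite calls would arise from these counts alone. How many of all genes were called in opposite directions was not counted. The tables were normalized separately, and the difference between the experiments was not tested. PSMD10, a 19S chaperone, was at -1.25 with shFOXA1 and 0.22 with shFoxA1 (log2 scale), and both calls held after median-ratio scaling (-1.09 and 0.22). For the lid subunit PSMD12 the values were -0.26 and 0.24, for the lid subunit PSMD6 -0.17 and 0.18, for the ATPase PSMC2 -0.33 and 0.20, and for the ATPase PSMC6 -0.21 and 0.13. After scaling the lower calls of these 4 were lost, at -0.09, 0.00, -0.16 and -0.04, and so was the higher call of PSMC6 (0.13). FOXA1 itself was reduced by 0.96 and 0.67 on the log2 scale in the 2 knockdowns.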

How the results depend on the processing

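Counts are members called higher, then lower. Median-ratio scaling gave 3 and 18 in shFOXA1, 2 and 12 in siEZH2, 10 and 1 (wild type) and 15 and 2 (K295A) against pGIPZ, 11 and 1 and 14 and 1 against shFoxA1, 2 higher for shFOXA1 against shUSP7 and 5 higher for shFOXA1 against shBUB3. Fits of 2 groups alone gave 14 and 10 in shUSP7, 1 higher in shFOXA1 and 2 higher for shFOXA1 against shUSP7. Leaving out 1 library gave 1 to 13 and 6 to 10 in shUSP7 (13 and 10 without the third shBUB3 library), 13 to 18 and 5 to 9 in shBUB3 (5 without the second pLKO or first shBUB3 library), 0 to 1 and 24 to 29 in shFOXA1, 0 and 22 to 27 in siEZH2, and 5 to 7 and 4 to 7 in shFoxA1. For wild type it gave 21 to 24 higher against pGIPZ and 18 to 20 against shFoxA1, with 0 lower, and for K295A 25 to 28 and 0, and 22 to 25 and 0 to 1 (1 without the first K295A library). It gave 15 to 17 and 7 to 11 for shBUB3 against shUSP7 (11 without the third shBUB3 library), 1 to 2 and 26 to 32 for shFOXA1 against shUSP7, 3 to 4 and 27 to 28 for shFOXA1 against shBUB3, and 0 and 0 for K295A against wild type. The causes were not tested. The pseudocount of 0.1 and no filter moved no count by over 1.5 times. Replicate numbers did not pair the samples: the correlation of same-numbered deviations ran from -0.185 to 0.126, at most 1 pair a comparison was over 0.1, and at most 2 of 3 libraries correlated best with their own number. The replicate block gave 4 and 7 in shUSP7, 14 and 7 in shBUB3, 0 and 28 in shFOXA1, 0 and 24 in siEZH2 and 8 and 4 in shFoxA1, and moved no other count by over 1.5 times. Of the values of named members under the alternatives, 993 stayed called or stayed not called, 36 lost a call, 12 gained one and 0 changed direction while called. A change of sign in a value that was called in neither fit was counted among the 993. Depth is relative only, so no floor is given for values at 0.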
